A study of Mus musculus with 4 samples.

Results

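Pf4, Ppbp, F2r, Itga2b, Vwf, Gp9, Gp1bb and Nrgn are 8 genes of platelets and of megakaryocytes, the bone marrow cells that shed platelets. They were taken by name from the 32265 genes of the single-cell tables of 4 mouse bone marrow libraries, and all 8 were found in every table. The list was drawn up with earlier results of these data known, so their levels are given as a description. Each library was prepared with inDrop, a droplet method that tags the polyadenylated RNA of single cells, from sorted Lin-Sca1+cKit+ (LSK) cells, the marrow fraction that holds stem and progenitor cells. The 4 libraries came from C57BL/6 mice: CML mice given imatinib, untreated CML mice, wild-type (WT) mice given imatinib and untreated WT mice. CML stands for chronic myeloid leukaemia, and imatinib is a tyrosine kinase inhibitor that blocks ABL, KIT and PDGF receptor kinases. Treated mice received 400 mg/kg by gavage on every other day, over 30 days in one label and over 4 weeks in another. The series compares drug-sensitive and drug-resistant leukaemic cells with normal stem and progenitor cells. How the CML mice were made, which promoter drives any transgene, how many mice went into a library and whether sorted cells carried the leukaemic change are not given in the sources used here. With 1 library per group there was no replicate and no test. The intervals given are exact 95% intervals that cover counting error only, and genotype, treatment, mouse, sort and library run cannot be told apart.

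Megakaryocytes fill their alpha granules with chemokines and adhesive proteins and carry adhesion receptors that pass to the platelet surface. Pf4 and Ppbp encode CXC chemokines of the alpha granule and are neighbours on chromosome 5. F2r encodes a thrombin receptor, although mouse platelets answer thrombin through the products of F2rl2 and F2rl3. Itga2b encodes CD41, which pairs with the Itgb3 product as the fibrinogen receptor and is also carried by early blood progenitors. Vwf encodes the adhesive multimer of the vessel wall and alpha granule, and in mice it marks stem cells biased to platelet output. Gp9 and Gp1bb encode subunits of the receptor for that multimer. Nrgn encodes a calmodulin-binding protein best known from neurons, whose transcript is also found in human platelets.

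The genes of Pf4 (chr5:90772435-90773383, plus strand, GRCm38) and Ppbp (chr5:90768518-90770063, plus strand) lie 2371 bases apart in the GENCODE vM21 annotation, each with 3 exons in its longest transcript. Their longest shared run of identical bases was 11 in the transcripts, and no base of either overlaps another annotated gene. F2r lies at chr13:95601803-95618487 (minus strand, 2 exons), Itga2b at chr11:102453297-102470122 (minus strand, 30 exons in the longest transcript), Vwf at chr6:125546774-125686679 (plus strand, 52 exons), Gp9 at chr6:87778072-87779768 (plus strand, 2 exons), Gp1bb at chr16:18620317-18622403 (minus strand, 1 exon in the longest transcript) and Nrgn at chr9:37544492-37552904 (minus strand, 4 exons). The promoter windows of the chemokine pair are shown because the results turn on how far the neighbours went apart. Both come from RefSeq on GRCm38.p6, run 5′ to 3′ and cover 250 bases before the annotated start and 50 from it. Capitals mark GATA words (GATA with A or T before it and A or G after it) and ETS words (GGAA with A or C before it and G after it) on either strand, so that a word of the minus strand shows as its complement. The words shown do not overlap. GATA and ETS proteins are families of transcription factors with members that act in megakaryocytes.
Pf4 (chr5:90772185-90772484, plus strand): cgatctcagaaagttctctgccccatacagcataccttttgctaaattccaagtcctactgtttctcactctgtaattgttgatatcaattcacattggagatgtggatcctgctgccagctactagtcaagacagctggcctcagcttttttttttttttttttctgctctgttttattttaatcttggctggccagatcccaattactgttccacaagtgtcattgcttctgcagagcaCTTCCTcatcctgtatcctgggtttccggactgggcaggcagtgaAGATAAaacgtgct
Ppbp (chr5:90768268-90768567, plus strand): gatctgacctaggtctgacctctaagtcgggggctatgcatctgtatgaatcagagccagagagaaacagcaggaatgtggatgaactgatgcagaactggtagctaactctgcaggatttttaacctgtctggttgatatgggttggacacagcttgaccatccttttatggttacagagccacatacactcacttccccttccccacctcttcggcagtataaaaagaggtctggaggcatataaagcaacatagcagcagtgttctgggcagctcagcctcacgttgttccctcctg

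The Pf4 window held 1 GATA word, just after the start, and 1 ETS word, just before it, and the Ppbp window held neither. Of 32851 promoter windows of that length, 29.8% held a GATA word and 46.5% an ETS word. Windows were found for 7 of the 8 genes. Gp1bb had 1 GATA and 2 ETS words, Itga2b had 2 ETS words, Gp9 had 1 ETS word, and F2r and Nrgn had neither kind. These are matches of letters in a window, and no binding was measured.

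The libraries differed in depth along with treatment. After cells with under 500 UMIs (tagged RNA molecules), under 200 genes or over 20% mitochondrial UMIs were left out, 5139 of 7132 CML imatinib cells, 3032 of 3032 untreated CML cells, 4187 of 5625 WT imatinib cells and 3030 of 3033 untreated WT cells were kept. Their median depth was 1198, 5160.5, 1486 and 3637.5 UMIs in that order, and the libraries held 9540004, 21283108, 8245224 and 13153658 UMIs. CPM, the count of a gene's summed UMIs per 1000000 of the library, is therefore given beside shares of cells, and shares are repeated after each cell was thinned to 500 UMIs. The LSK markers Kit and Ly6a stood at 143 and 51.0 CPM in CML imatinib cells, 149 and 95.8 in untreated CML cells, 176 and 49.6 in WT imatinib cells and 136 and 192 in untreated WT cells. Markers of other cell types, which the sort for LSK cells is meant to leave out, moved with treatment. The summed level of 10 granulocyte-monocyte progenitor (GMP) markers was 20927 CPM in CML imatinib cells, 6178 in untreated CML cells, 27770 in WT imatinib cells and 6657 in untreated WT cells. That of 9 neutrophil markers was 9145, 63.1, 6189 and 32.8 CPM in the same order, and that of 11 erythroid markers was 2949, 1073, 102 and 873 CPM. No marker of these lists was at 0 in any library. The part of cell composition and depth in the results was not tested, and in summed UMIs fewer cells of a type and less RNA per cell cannot be told apart. WT imatinib and untreated WT tables shared 1135 cell names, 20.4% of the imatinib and 39.6% of the untreated names, against 80 to 340 for the other pairs. The profiles of same-named cells in the WT tables had a median correlation of -0.0034, and those of different-named cells -0.0029. Each table's header held 1 name more than it had value columns, so names could not be tied to cells and no value without the shared names can be given.

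The 2 untreated libraries held alike levels of most of the 8 genes, while both imatinib libraries held less Pf4, F2r and Nrgn than their untreated partners. Ppbp went the other way in WT mice, where it was 25.95-fold higher with imatinib, and nearly all of its UMIs there lay in 14 cells rich in GMP transcripts. The genes are taken below by role.

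**Figure D1:**
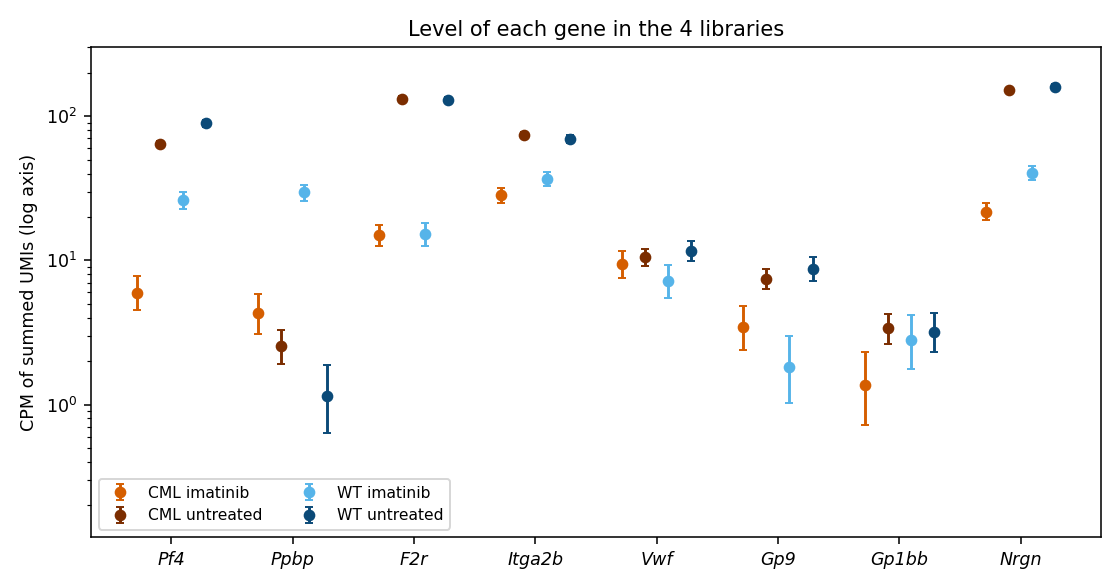
Level of each gene, as CPM of summed UMIs on a log axis, in CML imatinib, CML untreated, WT imatinib and WT untreated libraries, with 1 point per library and bars for exact 95% Poisson intervals. F2r and Nrgn form an upper untreated and a lower imatinib pair, and Ppbp stands apart only in the WT imatinib library, at 29.6 CPM.

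Among the granule chemokines, Pf4 stood at 5.97 CPM in the CML imatinib library (57 UMIs, interval 4.53 to 7.74), 64.2 CPM in the CML untreated library (1367 UMIs, 60.9 to 67.7), 26.1 CPM in the WT imatinib library (215 UMIs, 22.7 to 29.8) and 89.4 CPM in the WT untreated library (1176 UMIs, 84.4 to 94.7). By CPM the order of the libraries was WT untreated, CML untreated, WT imatinib and CML imatinib. None of these intervals overlap, but they treat UMIs of a cell as independent. In the CML untreated library 66.0% of Pf4 UMIs lay in 30 cells, and in the WT untreated library 65.5% lay in 30 cells. The intervals are thus too narrow to set the untreated libraries apart. Ppbp stood at 4.30 CPM in the CML imatinib library (41 UMIs, 3.08 to 5.83), 2.54 CPM in the CML untreated library (54 UMIs, 1.91 to 3.31), 29.6 CPM in the WT imatinib library (244 UMIs, 26.0 to 33.5) and 1.14 CPM in the WT untreated library (15 UMIs, 0.638 to 1.88). The WT imatinib library was the high one, and the CML libraries overlapped in their intervals.

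Among the receptors, F2r stood at 14.99 CPM in CML imatinib cells, 132 in CML untreated cells, 15.2 in WT imatinib cells and 129.9 in WT untreated cells. Its level followed treatment, and the 2 imatinib libraries had overlapping intervals (12.6 to 17.7 and 12.6 to 18.1), as did the 2 untreated ones. Itga2b stood at 28.4 CPM in CML imatinib cells, 74.1 in CML untreated cells, 36.9 in WT imatinib cells and 69.2 in WT untreated cells, the narrowest spread among the genes that were lower with imatinib in CML mice. Gp9 stood at 3.46, 7.47, 1.82 and 8.74 CPM in CML imatinib, CML untreated, WT imatinib and WT untreated cells. Gp1bb stood at 1.36, 3.38, 2.79 and 3.19 CPM in the same order. Both receptor subunits stayed under 10 CPM in every library, below the level at which a difference was called. Gp1bb counts are also uncertain because 91.1% of its exonic bases lie within exons of Sept5 on the same strand.

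Vwf, the receptor's ligand, stood at 9.43 CPM in CML imatinib cells, 10.5 in CML untreated cells, 7.16 in WT imatinib cells and 11.6 in WT untreated cells. Nrgn was the most abundant of the 8 by counts in both untreated libraries, at 21.8 CPM in CML imatinib cells, 151.6 in CML untreated cells, 40.4 in WT imatinib cells and 159.2 in WT untreated cells. Its order by CPM matched that of Pf4. CPM values are not scaled to transcript length, and levels of different genes are not compared further.

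Genotype without drug was compared first. A gene was called apart when its CPM differed at least 2-fold and the higher library held at least 10 CPM and 50 UMIs. By this rule 0 of the 5 measured members were apart in CML untreated against WT untreated cells, where 1.11% of 8916 measured genes were apart, 0.729% higher and 0.381% lower. The log2 ratio of CML untreated over WT untreated CPM was -0.48 for Pf4 (-0.59 to -0.36), 0.02 for F2r, 0.10 for Itga2b, -0.14 for Vwf and -0.07 for Nrgn. Pf4 was 1.39-fold lower in untreated CML cells, with a log2 interval that leaves out 0 but stays under 2-fold. That interval treats UMIs of a cell as independent. Pf4 was seen in 5.94% of CML untreated and 6.14% of WT untreated cells, with overlapping intervals. Ppbp was 2.22-fold higher in CML untreated cells, with 54 UMIs against 15, both under the 10 CPM floor.

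In CML mice, imatinib went with lower Pf4, F2r, Nrgn and Itga2b. In CML imatinib against CML untreated cells, 4 of 5 measured members were lower and 0 higher, where 19.4% of 9553 measured genes were apart, 7.96% lower and 11.5% higher. Pf4 was 10.75-fold lower in CML imatinib cells (log2 ratio -3.43), F2r 8.81-fold lower (-3.14), Nrgn 6.95-fold lower (-2.80) and Itga2b 2.61-fold lower (-1.38). On thinning to equal depth the Pf4 ratio was -2.43 (-3.05 to -1.85), and with cells of at least 1000 UMIs it was -4.11. The Itga2b call was lost on thinning, at -0.89, and on averaging single-cell CPM, at -0.96, and its ratio was -2.49 without clusters of mature cells. Vwf had a log2 ratio of -0.16 and was not called. Ppbp, at 0.76, and Gp9 and Gp1bb, at -1.11 and -1.31, were below the floor in both libraries.

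In WT mice the same comparison split the chemokines. In WT imatinib against WT untreated cells, 3 of 6 measured members were lower and 1 was higher, where 15.1% of 9196 measured genes were apart, 6.72% lower and 8.36% higher. F2r was 8.57-fold lower in WT imatinib cells (log2 ratio -3.10), Nrgn 3.94-fold lower (-1.98) and Pf4 3.43-fold lower (-1.78). Ppbp was 25.95-fold higher in WT imatinib cells (15.4 to 47.1), with a log2 ratio of 4.70. Itga2b at -0.91 and Vwf at -0.70 (-1.16 to -0.26) stayed under 2-fold, and Gp9 at -2.26 and Gp1bb at -0.19 were below the floor. Scaling the libraries by trimmed means took Itga2b past 2-fold and brought Gp9 above the floor, both as lower. Whether Itga2b is called in WT mice thus depends on the scaling. On thinning Vwf was at -1.93 (-3.30 to -0.70), on 8 UMIs against 22, too few for a call.

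Between the imatinib libraries, the members called apart were the chemokines. In CML imatinib against WT imatinib cells, 2 of 5 measured members were lower and 0 higher, where 4.03% of 9154 measured genes were apart, 0.208% lower and 3.82% higher. Pf4 was 4.36-fold lower in CML imatinib cells (log2 ratio -2.13) and Ppbp 6.89-fold lower (-2.78). F2r had a log2 ratio of -0.02, Itga2b of -0.38 and Nrgn of -0.89, all under 2-fold. The log2 change with imatinib in CML mice minus that in WT mice was -1.65 for Pf4, -3.94 for Ppbp, -0.82 for Nrgn, -0.48 for Itga2b and -0.04 for F2r. These comparisons share libraries and are not independent of each other. Over all 8 members the median log2 ratio was -0.02 for CML untreated over WT untreated, -1.35 for CML imatinib over CML untreated, -1.34 for WT imatinib over WT untreated and -0.63 for CML imatinib over WT imatinib, where the medians of all measured genes were 0.03, 0.01, -0.03 and 0.02. Scaling the libraries by trimmed means (TMM) shifted the median of all genes by -0.17, -0.32, -0.25 and -0.24 in the same order. It also moved the share of called genes that were higher to 42.6%, 28.6%, 31.5% and 81.3%, against 65.7%, 59.1%, 55.4% and 94.9% without it. No called member changed sign under it. It did take Nrgn past 2-fold, as lower in CML imatinib against WT imatinib cells, so that count depends on the scaling.

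Shares of cells with a UMI followed the levels for most genes. Pf4 was seen in 0.564% of CML imatinib cells, 5.94% of CML untreated cells, 1.48% of WT imatinib cells and 6.14% of WT untreated cells. After thinning, its shares were 0.331%, 2.14%, 0.788% and 2.48%, in the same order. T cell-like cells, which should lack Pf4, held it in 0 of 140 CML untreated cells at a median of 2258 UMIs and in 1 of 138 WT untreated cells at 1675.5 UMIs, a share of 0.725%. The imatinib libraries held only 1 and 8 T cell-like cells, so their erythroid-like cells served instead, with 0 of 276 CML imatinib cells (median 1502.5 UMIs, which allows up to 1.33%) and 0 of 35 WT imatinib cells (1198 UMIs, up to 10.003%). Those bounds lie above the Pf4 shares of the imatinib libraries, and the WT imatinib bound lies above every Pf4 share here, so they cannot set a background. Erythroid-like cells of the untreated libraries did hold Pf4, in 2 of 116 CML untreated and 1 of 63 WT untreated cells. At least 5 Pf4 UMIs were found in 4 CML imatinib and 17 WT imatinib cells. The untreated Pf4 shares were above the T cell-like ones, in deeper cells.

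Ppbp was rare everywhere, in 3 CML imatinib cells (0.0584%), 17 CML untreated cells (0.561%), 23 WT imatinib cells (0.549%) and 6 WT untreated cells (0.198%). Thinned, its shares were 0.0195%, 0.0989%, 0.358% and 0.0990%. The CML untreated and WT imatinib shares were alike before thinning, while the levels were 2.54 and 29.6 CPM. F2r was seen in 1.52% of CML imatinib cells, 27.0% of CML untreated cells, 1.89% of WT imatinib cells and 24.4% of WT untreated cells, and after thinning in 0.759%, 7.39%, 0.955% and 7.26%. Nrgn was seen in 2.59%, 38.3%, 5.56% and 34.8%, and after thinning in 1.40%, 7.55%, 2.36% and 8.84%. F2r and Nrgn were also seen in 16.4% each of the T cell-like cells of the CML untreated library and in 18.8% and 22.5% of those of the WT untreated library, so these genes were not confined to one class.

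Itga2b was seen in 3.37% of CML imatinib cells, 21.3% of CML untreated cells, 4.30% of WT imatinib cells and 18.1% of WT untreated cells. Thinning narrowed these to 1.67%, 3.73%, 2.08% and 3.53%, a gap far smaller than that of the unthinned shares. Vwf was seen in 1.19%, 4.22%, 1.17% and 3.14% of cells, and after thinning in 0.350%, 0.561%, 0.167% and 0.627%. Gp9 was seen in 0.389%, 3.89%, 0.358% and 3.23%, and Gp1bb in 0.156%, 1.52%, 0.334% and 1.22%. After thinning Gp1bb was left in at most 0.198% of cells and Gp9 in at most 0.627%, near the level of 1 UMI, and no order is read from them.

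**Figure D2:**
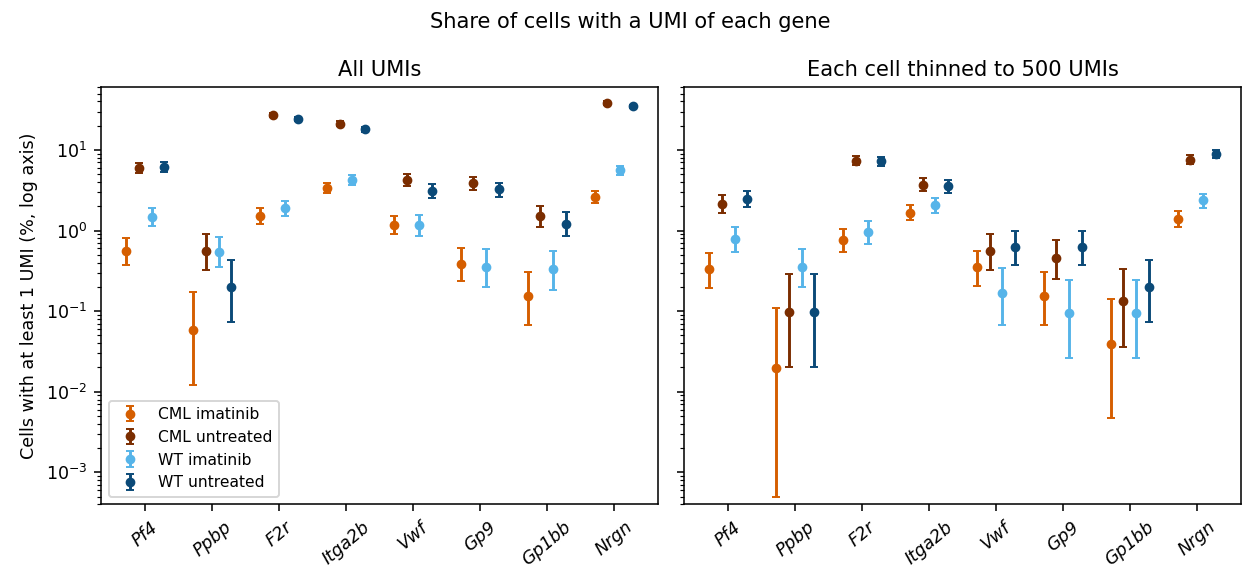
Percent of cells with at least 1 UMI of each gene, on a log axis, with all UMIs (left) and with each cell thinned to 500 UMIs (right), in the order CML imatinib, CML untreated, WT imatinib and WT untreated, with exact 95% binomial bars. The gap between untreated and imatinib cells narrows with thinning for Itga2b, whose thinned shares lie between 1.67% and 3.73%, and stays wide for F2r and Nrgn.

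The genes differed in how their UMIs spread over cells. The 1% of cells richest in Pf4 held 100% of its UMIs in the CML imatinib library, 66.0% in the CML untreated library, 90.2% in WT imatinib cells and 65.5% in WT untreated cells. For F2r the same share was 81.1%, 17.9%, 69.6% and 15.05%, and for Nrgn 60.6%, 11.7%, 33.6% and 10.9%. In the imatinib libraries these shares are pushed up by rare detection. There 1% is 51 CML imatinib and 41 WT imatinib cells, while only 29 and 62 cells held Pf4. The 100% was thus fixed by the number of cells with Pf4, and imatinib shares are not compared with untreated ones. Within the untreated libraries, Pf4 was packed into few cells, and F2r and Nrgn were thinly spread over many. The richest single cell held 7 Pf4 UMIs in the CML imatinib library, 112 in the CML untreated library, 13 in WT imatinib cells and 66 in WT untreated cells. For Ppbp the richest cell held 39, 15, 37 and 4 UMIs.

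Before thinning, cells with several of the 8 genes were more frequent in the untreated than in the imatinib libraries. A UMI of at least 4 of the 8 genes was found in 0 of 5139 CML imatinib cells, 151 CML untreated cells (4.98%), 17 WT imatinib cells (0.406%) and 118 WT untreated cells (3.89%). After thinning, 0, 6, 0 and 3 such cells were left, so these counts rest on depth as well. At least 1 of the 8 was found in 8.97% of CML imatinib cells, 57.3% of CML untreated cells, 12.1% of WT imatinib cells and 52.9% of WT untreated cells, and after thinning in 4.48%, 18.3%, 5.83% and 19.3%. The most members in 1 cell were 3, 7, 6 and 7. Cells with Pf4 had a median depth of 1141, 6616.5, 2287 and 3815 UMIs and cells with Ppbp of 6269, 13565, 3025 and 4985 UMIs, in the order CML imatinib, CML untreated, WT imatinib and WT untreated.

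Pf4 went with F2r and Itga2b in untreated cells. Of cells with Pf4, F2r was seen in 66.7% in the CML untreated library, against 24.5% of cells without Pf4, and in 69.4% in the WT untreated library, against 21.4%. In the WT imatinib library F2r was seen in 14.5% of the 62 cells with Pf4 and 1.70% of those without. In the CML imatinib library it was seen in 0 of 29 cells with Pf4 and 1.53% of those without. Itga2b was seen in 17.2% of cells with Pf4 in the CML imatinib library, 65.0% in the CML untreated library, 48.4% in WT imatinib cells and 60.2% in WT untreated cells, against 3.29%, 18.5%, 3.64% and 15.4% of cells without Pf4. Before thinning, cells with Pf4 and Itga2b were 5.12, 3.05, 11.3 and 3.32 times the number that the product of their shares gives, in the same order. For Pf4 and F2r the values were 0, 2.47, 7.69 and 2.84. In the CML imatinib library that product was only 0.44 cells for Pf4 and F2r, so the 0 there cannot be read as a lack of overlap. Thinned to equal depth, 0 of 33 WT imatinib cells with Pf4 held F2r. In thinned cells with Pf4, Itga2b was held by 4 of 17 CML imatinib, 15 of 65 CML untreated, 10 of 33 WT imatinib and 15 of 75 WT untreated cells. These counts are small. Vwf was seen in 0 of 29 cells with Pf4 in the CML imatinib library, 21.7% in the CML untreated library, 19.4% in WT imatinib cells and 22.04% in WT untreated cells. Without Pf4 the shares were 1.19%, 3.12%, 0.897% and 1.90%. For Pf4 and Vwf in the CML imatinib library the product of shares was 0.34 cells, so that 0 cannot be read either. Gp1bb, where seen, lay mostly in cells with Pf4 except in the CML imatinib library. Of cells with Gp1bb, 12.5% of 8 CML imatinib cells, 52.2% of 46 CML untreated cells, 85.7% of 14 WT imatinib cells and 64.9% of 37 WT untreated cells held Pf4. F2r and Nrgn met in 1.28% of F2r cells in the CML imatinib library, 54.8% in the CML untreated library, 21.5% in WT imatinib cells and 52.2% in WT untreated cells, against 2.61%, 32.2%, 5.26% and 29.1% of cells without F2r that held Nrgn.

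**Figure D3:**
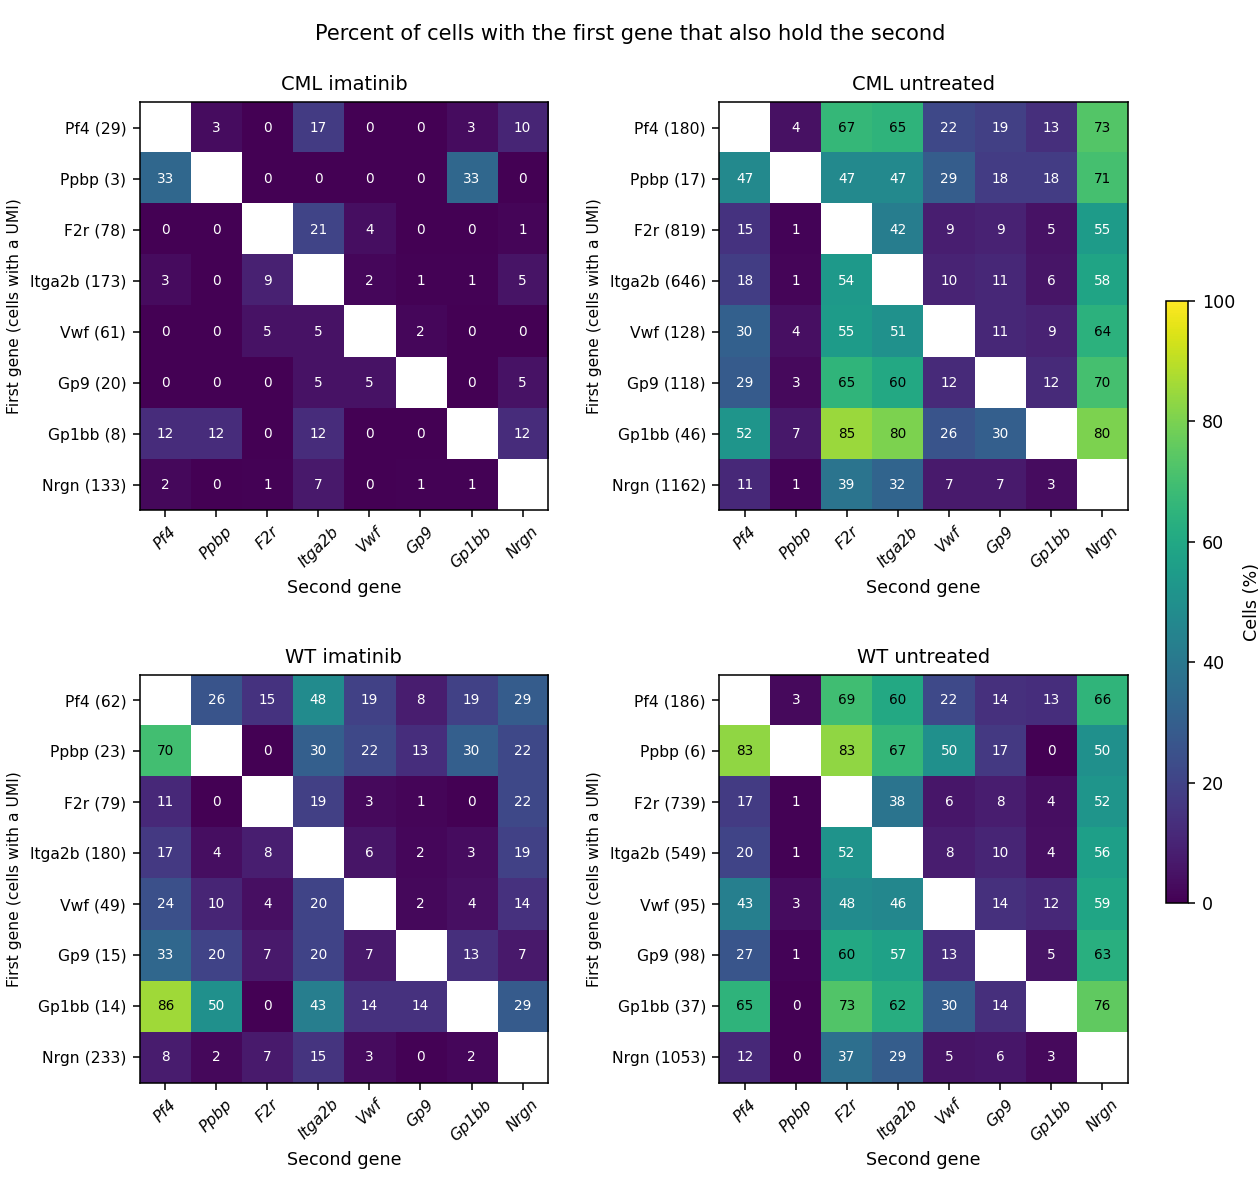
Percent of cells with a UMI of the first gene (rows, with the number of such cells in brackets) that also hold the second (columns), 1 panel per library, in all UMIs and not thinned. The untreated panels are filled in for F2r, Itga2b and Nrgn, the CML imatinib panel is nearly empty, and the WT imatinib panel has its high cells in the Pf4 column, with 86% of Gp1bb cells and 70% of Ppbp cells.

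Cells were grouped by clustering without the 8 genes and without other megakaryocyte genes. In the untreated libraries, most UMIs of all 8 lay in 1 cluster that is left unnamed, led by Dntt, Mycn and Rgs1, with 1881 CML untreated and 1997 WT untreated cells but only 40 CML imatinib and 56 WT imatinib cells. It held 98.2% of Pf4 UMIs in the CML untreated library and 93.5% in the WT untreated library. For Nrgn the shares were 87.1% in each, the lowest of the 8 genes, and for Ppbp 90.7% and 100%. Within that cluster the log2 ratio of CML untreated over WT untreated was -0.32 for Pf4 (-0.44 to -0.21), 0.09 for F2r, 0.14 for Itga2b, -0.04 for Vwf and 0.01 for Nrgn. The Pf4 difference was thus smaller within the cluster than in the whole library. The few imatinib cells of that cluster held 93.4 CPM of F2r in CML imatinib and 102 CPM in WT imatinib cells, against 222 CPM in CML untreated and 208 CPM in WT untreated cells. The log2 ratios were -1.25 in CML mice (-2.87 to -0.02) and -1.03 in WT mice (-2.24 to -0.05), on 5 and 8 F2r UMIs, smaller than in whole libraries. Nrgn in the same cells had a ratio of -0.71 in CML mice (-1.93 to 0.27) and 0.75 in WT mice (0.20 to 1.25). Pf4 there had a ratio of -0.06 in CML mice (-1.51 to 1.06), on 6 UMIs of 1 cell. In WT mice the Pf4 ratio there was -1.52 (-3.40 to -0.16), on 4 UMIs. In whole libraries the Pf4 ratios were -3.43 in CML mice and -1.78 in WT mice.

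With imatinib most UMIs of these genes lay in other clusters, as did nearly all cells of the imatinib libraries. Of 57 Pf4 UMIs in the CML imatinib library, 42 lay in a second unnamed cluster of shallow cells (2634 cells there, with a median of 881.5 UMIs). Of 215 in the WT imatinib library, 119 lay in GMP-like cells and 77 in that shallow cluster. Of 244 Ppbp UMIs in the WT imatinib library, 219 lay in 20 of 1967 GMP-like cells, where Ppbp reached 38.7 CPM, while in the CML imatinib library it was seen in 0 of 1641 GMP-like cells (up to 0.225% of cells). The GMP-like cluster was led by Mgl2 and Far2, with Elane, Fcnb and Ly6c2 among its top 10 genes. Itga2b reached 511 CPM in CML imatinib and 445 CPM in WT imatinib cells of a mast cell and basophil-like cluster, which held 98 of 271 and 102 of 304 of its UMIs. Vwf and Gp9 in the CML imatinib library lay largely in erythroid-like cells, with 53 of 90 and 17 of 33 UMIs, and the 3 cells with at least 4 Vwf UMIs there had a median depth of 34019 UMIs, 28.4 times the library median. Different clusters thus hold most UMIs of the same gene in treated and untreated cells.

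Pf4 and Ppbp differed most in where their UMIs met. There was 1.39 UMIs of Pf4 per UMI of Ppbp in the CML imatinib library (0.914 to 2.13), 25.3 in the CML untreated library (19.3 to 33.9), 0.881 in the WT imatinib library (0.730 to 1.06) and 78.4 in the WT untreated library (47.3 to 140.5). Such a ratio within a library does not depend on scaling. Cells with both numbered 1 of 29 Pf4 cells in the CML imatinib library, 8 of 180 in the CML untreated library, 16 of 62 in the WT imatinib library and 5 of 186 in the WT untreated library. Ppbp was thus seen in 3.45%, 4.44%, 25.8% and 2.69% of cells with Pf4, and in 0.0391%, 0.316%, 0.170% and 0.0352% of cells without. After thinning, the WT imatinib share was 24.2%, with 8 of 33 cells. The thinned counts elsewhere were 1 of 17 CML imatinib, 0 of 65 CML untreated and 1 of 75 WT untreated cells with Pf4. Across cells of a library, which share depth and capture and are not replicates, Pf4 and Ppbp were also correlated on a log scale. The Pearson correlation was 0.25 (n = 5139), 0.15 (n = 3032), 0.40 (n = 4187) and 0.11 (n = 3030), in the order CML imatinib, CML untreated, WT imatinib and WT untreated. In thinned cells it was 0.21, -0.005, 0.31 and 0.05 in that order. The CML imatinib values rest on 1 cell with both genes.

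Abundant Pf4 without Ppbp was the rule in untreated cells. Cells with at least 10 Pf4 UMIs numbered 0 in the CML imatinib library, 35 in the CML untreated library, 4 in WT imatinib cells and 29 in WT untreated cells. Of these, 5 of the 35 CML untreated cells held Ppbp, with 25 UMIs, all 4 WT imatinib cells held it, with 94 UMIs, and 0 of the 29 WT untreated cells did. The cut of 10 Pf4 UMIs is a raw count that shallow cells reach less easily. Median depth was 9355 UMIs in the 35 CML untreated cells and 1198 in all kept CML imatinib cells, so the numbers of such cells are not compared between libraries. Cells with at least 5 Ppbp UMIs numbered 1 in the CML imatinib library (39 UMIs, 95.1% of its Ppbp), 3 in the CML untreated library (36 UMIs, 66.7%), 14 in the WT imatinib library (229 UMIs, 93.9%) and 0 in the WT untreated library. A high Ppbp level was therefore the property of a few cells in each library that had it.

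**Figure D4:**
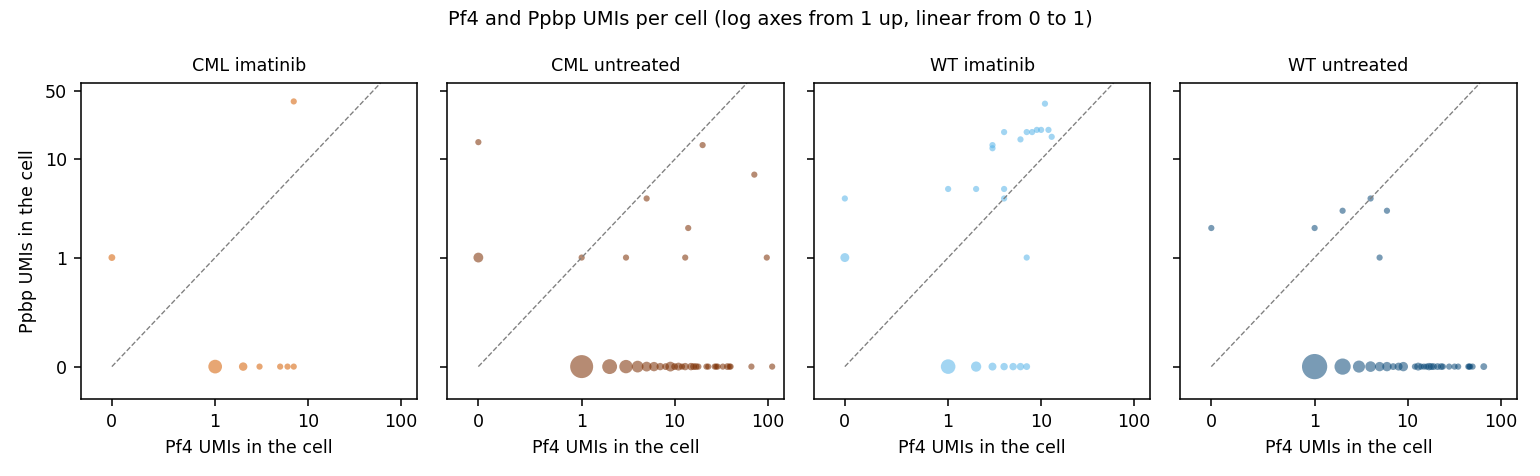
Pf4 UMIs (x) and Ppbp UMIs (y) of each cell that holds either, 1 panel per library in the order CML imatinib, CML untreated, WT imatinib and WT untreated, on axes that are linear from 0 to 1 and log above. Untreated cells run along the Pf4 axis up to 112 and 66 UMIs, and WT imatinib cells rise along both axes, up to 13 Pf4 and 37 Ppbp UMIs.

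The 14 Ppbp-rich WT imatinib cells carried both chemokines and a GMP transcriptome. They held 5 to 37 Ppbp UMIs (median 18) and 1 to 13 Pf4 UMIs (median 6.5), and F2r was at 0 in all 14. F2r stood at only 15.2 CPM in the whole library, too low for a count of 0 in 80580 UMIs to set the 14 cells apart. Their depth was 2567 to 9936 UMIs (median 6139.5), 4.13 times the library median, and 13 of them fell in the GMP-like cluster and 1 among monocyte and macrophage-like cells. Each held 15 to 70 UMIs of Mpo, the myeloperoxidase of granulocyte precursors. The depth of the shallowest of the 14, 2567 UMIs, was used as a cut, so all 13 GMP-like ones pass it by construction. Of GMP-like WT imatinib cells with at least 2567 UMIs, 13 of 986 (1.32%, 0.704 to 2.24%) held 5 or more Ppbp UMIs. None of 607 CML imatinib, 81 CML untreated and 82 WT untreated GMP-like cells of that depth did, which allows shares of up to 0.606%, 4.45% and 4.40% (exact binomial). Cells of 1 library are not replicates, and the cut came from the library where Ppbp is high, so these shares only describe the libraries. Droplets holding a pair of cells were not called, and their part in these cells was not tested.

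Set beside the Pf4-rich cells of the untreated libraries, the Ppbp-rich WT imatinib cells held platelet genes and high levels of GMP genes. Mpo stood at 6838 CPM in the 14 WT imatinib cells, against 17.3 CPM in the 35 CML untreated and 7.54 CPM in the 29 WT untreated cells with at least 10 Pf4 UMIs. Elane, neutrophil elastase, stood at 9717, 0 and 15.1 CPM in the same order. In the 4118 WT imatinib cells with neither chemokine, Mpo was 5821 and Elane 9513 CPM, close to the Ppbp-rich cells. Gata1, the transcription factor of megakaryocyte and erythroid cells, was at 0 in the WT imatinib cells, which allows up to 45.8 CPM, against 133 CPM in the CML untreated and 158 CPM in the WT untreated cells. Gfi1b, a repressor of the same lineages, was at 0, against 86.5 and 166 CPM. WT imatinib cells with neither chemokine held only 6.08 CPM of Gata1 and 6.21 CPM of Gfi1b, levels too low for the 14 cells to be told apart from them. Fli1, an ETS factor, stood at 24.8, against 594 and 543 CPM, and at 78.8 CPM in the WT imatinib cells with neither chemokine. The 14 cells held 80580 UMIs in all, too few to tell the values of 24.8 and 78.8 CPM apart.

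Other platelet genes were held by both kinds of cell. Itgb3, the partner of CD41, stood at 199 CPM in the WT imatinib cells, against 110 and 113 CPM in the CML untreated and WT untreated cells, and at 7.32 CPM in WT imatinib cells with neither chemokine. Treml1, a receptor of alpha granule membranes, stood at 161, against 104 and 106 CPM, and at 1.99 CPM in WT imatinib cells with neither. Gp1bb stood at 186, against 63.4 and 113 CPM, and at 0.248 CPM in cells with neither. Plek, a platelet kinase substrate, stood at 236, against 505 and 580 CPM, and Cd9, a tetraspanin, at 335, against 681 and 829 CPM, while WT imatinib cells with neither chemokine held 23.8 and 118 CPM. Itga2b stood at 149, against 632 and 611 CPM, and Nrgn at 62.1, against 519 and 543 CPM. Tubb1, the tubulin of platelets, was at 0 in all these sets of cells. Over the whole marker lists, without the 8 genes, the WT imatinib cells held 10 of 10 GMP markers at a summed 31869 CPM, 9 of 11 megakaryocyte markers at 1415 CPM and 0 of 11 erythroid markers. The CML untreated Pf4-rich cells held 10 of 11 megakaryocyte markers at 2535 CPM and the WT untreated ones 9 of 11 at 2924 CPM, beside 1260 and 1198 CPM of GMP markers. WT imatinib cells with neither chemokine summed to 27858 CPM of GMP and 310 CPM of megakaryocyte markers. The sets were chosen by Pf4 or Ppbp, and these values describe them. Whether the platelet transcripts and the GMP transcripts came from one cell was not tested.

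**Figure D5:**
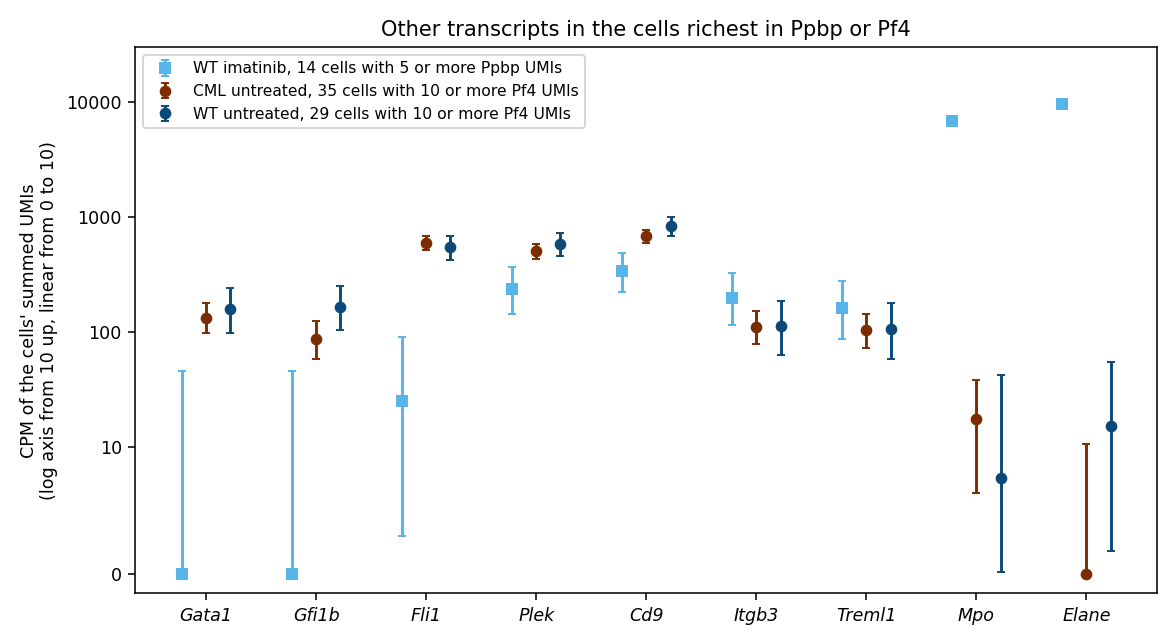
Level of 9 other genes, as CPM on an axis that is log from 10 up and linear below, in the 14 WT imatinib cells with 5 or more Ppbp UMIs (squares) and in the 35 CML untreated and 29 WT untreated cells with 10 or more Pf4 UMIs (circles), with exact 95% Poisson bars. Itgb3 and Treml1 are held by all 3 sets, Gata1 and Gfi1b are at 0 in the WT imatinib cells, and Mpo and Elane reach 6838 and 9717 CPM there and at most 17.3 CPM in the others.

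The 46 WT imatinib cells with Pf4 and no Ppbp had a median of 1197 UMIs, and 29 of them lay in the shallow unnamed cluster. They held Itga2b at 700.4 CPM, F2r at 161, Nrgn at 379 and Gata1 at 57.4 CPM (5 UMIs), beside 2285 CPM of Mpo and 3594 CPM of Elane. In the CML imatinib library a single cell of 1859 UMIs in the shallow cluster held 39 of 41 Ppbp UMIs, with 7 Pf4, 6 Gp1bb, 23 Treml1, 13 Cd9 and 4 Plek UMIs, 8 each of Mpo and Elane, and F2r at 0. Its GMP markers summed to 17214 CPM, against 21052 CPM in CML imatinib cells with neither chemokine. The 3 Ppbp-rich CML untreated cells held 15, 14 and 7 Ppbp UMIs beside 0, 20 and 72 Pf4 UMIs, and all lay in the large unnamed cluster, with at most 1 Mpo UMI.

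The cells of 5 or more Ppbp UMIs hold most Ppbp by their choice, and values without them show what the other cells hold. The WT imatinib over WT untreated log2 ratio of Ppbp was then 0.69 and that of Pf4 -2.58, against 4.70 and -1.78 with them. For CML imatinib over WT imatinib the Ppbp ratio was then -3.13, with too few UMIs for a call. Without those cells, CML imatinib held 25 UMIs of Pf4 per UMI of Ppbp, CML untreated 70.8 and WT imatinib 8.13. The first of these rests on 2 Ppbp UMIs. Pf4 in CML imatinib over WT imatinib cells then had a log2 ratio of -1.51. In cells thinned to 500 UMIs, that ratio was -1.25 and Ppbp held too few UMIs for a call in either comparison, at 2.53 for WT imatinib over WT untreated and -2.56 for CML imatinib over WT imatinib. Without the deepest 5% of cells, those Ppbp ratios were 3.07 and -0.996, and the second was no longer called.

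Other genes of the platelet pathway were taken from lists drawn up by role. Of 14 measured megakaryocyte transcription factors, 0 were apart in CML untreated against WT untreated cells, 5 were lower and 0 higher in CML imatinib against CML untreated cells, 8 were lower and 0 higher in WT imatinib against WT untreated cells, and 4 were higher and 0 lower in CML imatinib against WT imatinib cells. Of all measured genes, 7.96% were lower with imatinib in CML mice and 6.72% in WT mice. Between the untreated libraries 1.11% were apart, and 3.82% were higher in CML imatinib against WT imatinib cells. With TMM scaling the lower transcription factors numbered 7 in CML mice and 11 in WT mice. In CML mice Mef2c, a MADS-box factor, stood at 62.9 CPM with imatinib and 275 CPM untreated. In WT mice Gata1 stood at 6.55 CPM with imatinib and 71.6 CPM untreated, Gfi1b at 6.43 and 34.97 CPM, and Zfpm1, the GATA1 cofactor, at 10.8 and 43.5 CPM. CML imatinib cells held more of these than WT imatinib cells, with Gata1 at 69.4 against 6.55 CPM, Gfi1b at 35.1 against 6.43 CPM, Zfpm1 at 55.6 against 10.8 CPM and Tal1 at 78.2 against 25.3 CPM. The summed erythroid markers, 2949 against 102 CPM, moved with them, and their part was not tested.

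Of the adhesion receptors, 0 of 7 measured were apart in CML untreated against WT untreated cells, 5 of 7 were lower in CML imatinib against CML untreated cells, 3 of 6 were lower in WT imatinib against WT untreated cells, and 0 of 3 were apart in CML imatinib against WT imatinib cells. Of all measured genes, 7.96% were lower and 11.5% higher with imatinib in CML mice, and 6.72% and 8.36% in WT mice. Between the untreated libraries 1.11% were apart and between the imatinib libraries 4.03%. At these shares a count of 0 in a short list says little, which holds for the thrombopoietin pathway below too. Selp, P-selectin, is counted below with the platelet-biased stem cell and alpha granule genes and not among these receptors. It stood at 12.8 CPM in CML imatinib, 61.3 in CML untreated, 26.1 in WT imatinib and 60.7 in WT untreated cells. Esam, a junction protein also of endothelium, stood at 3.25 CPM in CML imatinib and 20.3 CPM in CML untreated cells. Of the thrombopoietin pathway, 4 of 10 measured genes were lower and 0 higher with imatinib in CML mice, and likewise in WT mice, where 7.96% and 6.72% of all measured genes were lower, with 0 apart between the untreated libraries and between the imatinib libraries. Of 7 genes of platelet-biased stem cells beside Vwf, Itga2b and Gp1bb, 1 was higher and 3 lower of 5 measured with imatinib in CML mice, and 2 lower of 3 in WT mice.

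Alpha granule genes went both ways. Besides Pf4, Ppbp and Vwf, 6 were higher and 3 lower of 10 measured in CML imatinib against CML untreated cells, 3 higher and 1 lower of 6 in WT imatinib against WT untreated cells, 1 higher of 7 in CML untreated against WT untreated cells, and 2 higher and 1 lower of 8 in CML imatinib against WT imatinib cells. Of all measured genes, 11.5% were higher and 7.96% lower with imatinib in CML mice, and 8.36% and 6.72% in WT mice. The shares were 0.729% and 0.381% between the untreated libraries, and 3.82% and 0.208% between the imatinib libraries. Sparc, a matrix protein also made by bone cells, stood at 131.6 CPM in CML imatinib and 3.43 CPM in CML untreated cells. Serpine2, a thrombin inhibitor, stood at 115 CPM in CML imatinib, 17.996 in CML untreated, 108 in WT imatinib and 14.8 in WT untreated cells. F5, coagulation factor V, stood at 22.6 CPM in WT imatinib and 1.98 CPM in WT untreated cells. A cluster of 33 CML imatinib cells was led by Cxcl12 and Sparc.

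Of genes for platelet signalling, 0 of 16 measured were apart in CML untreated against WT untreated cells, 1 of 17 was higher and 4 lower in CML imatinib against CML untreated cells, 2 of 17 were higher and 4 lower in WT imatinib against WT untreated cells, and 0 of 16 were apart in CML imatinib against WT imatinib cells. With imatinib 19.4% of all measured genes were apart in CML mice and 15.1% in WT mice. Between the untreated libraries 1.11% were apart and between the imatinib libraries 4.03%, shares at which 0 of 16 says little. With TMM scaling 0 of 17 signalling genes were higher and 5 lower in CML mice, and 1 higher and 4 lower in WT mice. Plek stood at 25.3 CPM in CML imatinib, 95.9 in CML untreated, 27.9 in WT imatinib and 94.0 in WT untreated cells. Rgs18, a brake on G protein signals in platelets, stood at 56.1 CPM in CML imatinib and 184 CPM in CML untreated cells. Of the cytoskeleton list, 2 were higher and 1 lower of 10 measured in CML imatinib against CML untreated cells, and 2 higher and 1 lower of 9 in WT imatinib against WT untreated cells. With TMM scaling the first of these became 0 higher and 2 lower, and the second 2 higher and 2 lower. The calmodulin genes, whose products Nrgn binds, were apart in none of the 4 comparisons, with 3 measured, too few to set against the shares of all genes. Cxcl2, the one measured CXC neighbour of Pf4 and Ppbp on chromosome 5, stood at 14.8 CPM in CML imatinib and 56.6 CPM in CML untreated cells and was lower with imatinib in WT mice also.

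Genes most like Pf4 across cells were found from the mean, over the 4 libraries, of the within-library correlation of log-scaled levels among 10458 genes. Among those next to Pf4 were Slc14a1, a urea transporter, at 0.26, Itga2b at 0.26, Vwf at 0.22, Cd9 at 0.19, Rap1b and Plek at 0.17 each and Rab27b at 0.15. Next to Ppbp was Pf4 at 0.23, and then Vwf and Rhof at 0.08 each, Nol4l at 0.07, Plek, Pcyt1b and Fyn at 0.06 each and Sox13 at 0.05. Apart from Pf4, no gene came near Ppbp by this measure, and in counts this sparse the small values are no finding.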

How the data were processed

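Single-cell RNA was measured in 4 inDrop libraries of sorted mouse LSK cells, 1 per group, grouped by the labels' treatment fields and titles. Partek 8.0, Bowtie 1.1.1, GRCm38 and mm10 are listed in the submitters' processing notes, with no role stated. The deposited tables hold a signal scaled to the same total in each cell by the authors. Each value divided by the smallest nonzero value of its cell was whole within 0.02 for 100% of values, so counts were recovered, rounded and taken as UMIs. The sources used here do not say whether duplicates were collapsed. With 1 library per group no count test could be run. The filters, thinning (fixed random draw) and calling rule stand with the results, in Python 3.11.15 with numpy 2.4.6, scipy 1.17.1 and scanpy 1.11.5, and TMM in edgeR 4.0.16. Intervals are exact Poisson for CPM and Clopper-Pearson for shares and ratios of UMIs, and a count of 3 UMIs, the floor for a gene at 0, equals 0.141 to 0.364 CPM. UMIs of a cell are treated as independent, so intervals cover counting error only.

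Clusters came from the leading 30 principal components of 2000 variable genes and Leiden clustering at resolution 0.5 (igraph 0.11.9). The 8 genes and the megakaryocyte lists were left out of the clustering. A cluster was named from its markers only with at least 3 of them among its top 25 genes and no contradiction in its leading genes. Such names are rebuilt here and may differ from the study's. No doublet caller was run. The genes named are the 8 members, up to 4 per list with at least 20 CPM and the greatest log2 ratios, and the 8 most like Pf4 and Ppbp; results of 2 of these genes are not reported here. Genes of cell sets rich in Pf4 or Ppbp were chosen after their values were seen. The members and lists were chosen with earlier results of these data known. The ratio and interval code was tested on simulated data. Alternatives covered scaling, cell and level floors, thinning and left-out cells.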

Additional observations from a re-analysis of the deposited data

Results flagged for a closer look

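Cells left out by the filter on depth, genes and mitochondrial share also held several of the 8 genes, above the level of 3 UMIs that a count of 0 allows. In 1993 left-out CML imatinib cells with 725650 UMIs in all, Pf4 stood at 11.02 CPM, F2r at 37.2, Itga2b at 60.6, Vwf at 5.51 and Nrgn at 95.1 CPM. The kept CML imatinib cells held 5.97, 14.99, 28.4, 9.43 and 21.8 CPM of the same genes, so all but Vwf were higher in the left-out cells. In 1438 left-out WT imatinib cells with 483305 UMIs, Pf4 stood at 55.9 CPM, F2r at 68.3, Itga2b at 95.2 and Nrgn at 155 CPM, against 26.1, 15.2, 36.9 and 40.4 CPM in the kept WT imatinib cells. All 4 were higher in the left-out cells. The untreated libraries begin at 1001 and 1006 UMIs per cell and had at most 3 cells to leave out, so no matching value exists there.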

How the results depend on the processing

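No paired analysis was possible because each group is 1 library. No member called at least 2-fold apart changed sign under any alternative run. Of the 10 calls, 3 were lost on thinning to 500 UMIs, 2 without the cells of 5 or more Ppbp UMIs, 1 on averaging single-cell CPM and 1 without the deepest 5% of cells; scaling by TMM, a minimum of 1000 UMIs per cell, no cell filter, leaving out mature-cell clusters and leaving out ribosomal, mitochondrial and haemoglobin genes lost none. The count for CML imatinib against WT imatinib, 2 under the settings of the report, was 0 with a floor of 50 CPM and 1 on thinning, without the Ppbp-rich cells and without the deepest cells. TMM scaling added Nrgn to it, as lower in CML imatinib cells. The count for CML untreated against WT untreated, 0 under the settings of the report, was 1 with no CPM floor. The count for WT imatinib against WT untreated, 4 under the settings of the report, was 7 without mature-cell clusters and 3 to 6 under the other settings. Pf4 UMIs per Ppbp UMI in the CML imatinib library were 0.732 with at least 1000 UMIs per cell, 2.62 as a mean of single-cell CPM, 6.4 on thinning and 25 without the Ppbp-rich cells. In the WT imatinib library they were 0.628, 2.34, 2.58 and 8.13 under the same settings, and 1.75 without the deepest cells. In the CML untreated library they were 70.8 without the Ppbp-rich cells. The Ppbp ratio of WT imatinib over WT untreated was 2.53 on the log2 scale on thinning, below the floor, and 3.07 without the deepest cells, and that of CML imatinib over WT imatinib was -0.996 without them. For the settings that drop cells, fewer UMIs of Ppbp were left by construction; for the others the cause was not tested. Leaving out the Ppbp-rich, mature or deepest cells was chosen after seeing the data. Depth limits Gp9, Gp1bb and Ppbp most, with 13 to 159 UMIs of the receptor subunits per library.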
